A study of Mus musculus with 18 samples.

Results

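The genes described here encode the subunits of the glutamate and GABA receptors, the receptors for the main excitatory and the main inhibitory transmitter of the brain. They were chosen by name alone, as all protein-coding genes whose mouse symbol belongs to the AMPA (Gria), kainate (Grik), delta (Grid), NMDA (Grin), metabotropic glutamate (Grm), GABA-A (Gabra, Gabrb, Gabrg, Gabrd, Gabre, Gabrp, Gabrq, Gabrr) or GABA-B (Gabbr) families. The rule found 47 genes, 26 for glutamate and 21 for GABA receptors, among 21772 protein-coding genes and 48795 genes in the table. Their RNA was followed in GL261 GFP cells before and after growth in the brains of mice. GL261 is a glioma line of the mouse, marked in this study with green fluorescent protein (GFP). Each of 6 groups had 3 libraries. Cultured GL261 GFP cells, the cells that were injected, were 1 group. Tumours were taken from symptomatic C57BL/6 mice that were either wild type (WT) or Pfp/Rag2-/-, with 6 mice of each host, and were made into single cells with collagenase at 1.5 mg/mL. Pfp/Rag2-/- mice lack perforin, a killing protein of cytotoxic lymphocytes, and Rag2, without which no mature T or B cells form. From both hosts, GFP+ tumour cells were sorted and unsorted cells of the whole suspension were kept. The GFP- non-tumour cells analysed here all came from WT hosts. All tumours came from the same GFP-carrying line, and the labels used here give no age of the mice. Nothing in the labels ties a library to a single animal or to pooled animals. The p-values below therefore measure the spread between libraries, which may be technical.

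AMPA, kainate and NMDA receptors are channels that open when glutamate binds, and each is built from several subunits. Grik1, Grik2 and Grik3 encode kainate subunits that can form channels on their own, while Grik4 and Grik5 encode high-affinity subunits that need one of the others. Metabotropic glutamate receptors and GABA-B receptors act through G proteins, GABA-B as a pair of Gabbr1 and Gabbr2. GABA-A receptors are chloride channels, in neurons mostly of alpha, beta and gamma or delta subunits. Neurons carry most of these receptors, but cells of the oligodendrocyte lineage and gliomas are also known to express some of them.

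Library depth was even, with 19172814 to 21141662 reads recovered per library. Values are normalized counts, in which 1 read was worth 0.871 to 0.958 in most libraries and 1.31 to 1.54 in GFP- libraries, since the size factors there were 0.649 to 0.761 against 1.04 to 1.15 elsewhere. Prf1, which encodes perforin, stood at 109, 98.96 and 139 in unsorted cells of WT hosts and at 7.11, 13.6 and 16.2 in those of Pfp/Rag2-/- hosts. Rag2 had no read in unsorted cells of WT hosts and 4.44, 6.34 and 3.61 in those of Pfp/Rag2-/- hosts. The counts cover whole genes, and a disrupted gene can still give reads. In GFP+ cells Prf1 stood at 118, 4.75 and 10.1 in WT and 117, 5.51 and 0.921 in Pfp/Rag2-/- hosts, so the library labelled 1 of the latter went against its label on this gene. The microglia and macrophage markers summed to 289109 to 322639 in GFP- cells, 5942 to 12862 in GFP+ cells of WT hosts and 640 to 739 in culture, with 5 of the 12 (Aif1, Itgam, Adgre1, C1qb and C1qc) at 0 in culture and all 12 at a mean of at least 10 in GFP+ cells. Both GFP+ libraries numbered 1 stood apart in natural killer (NK) cell RNA: the 6 NK markers summed to 1926 in library 1 of the Pfp/Rag2-/- hosts, against 25.8 and 42.3 in the other two, and reached 1124 in the WT hosts. The 20 neuron markers summed to 595 to 670 in culture, 1180 to 1848 and 1854 to 2058 in GFP+ cells of WT and Pfp/Rag2-/- hosts, 3276 to 6522 in unsorted cells of WT hosts and 5910 to 19104 in those of Pfp/Rag2-/- hosts. Library 1 of the unsorted Pfp/Rag2-/- cells alone gave 19104, with the next at 6580. In culture 7 of the 20 had a mean of at least 10 and Nefm, Nefh, Elavl4, Vsnl1 and Cplx2 were at 0, while 11 and 14 reached 10 in GFP+ cells of WT and Pfp/Rag2-/- hosts and all 20 in unsorted cells. In GFP- cells the sum was 4675 to 5257, while Snap25, a defining neuronal gene, stood at 11.8, 0 and 27.6. In such bulk samples, fewer cells of a type and less RNA per cell cannot be told apart.

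Some of the 47 genes were read in the tumour cells themselves, and others mostly in unsorted cells, where the neuronal gene Snap25 was also highest. In culture 9 of the 47 had a mean of at least 10, in GFP+ cells 12 in WT and 13 in Pfp/Rag2-/- hosts, in GFP- cells 14, and in unsorted cells 38 in both hosts. No read was found for 19 of the 47 in any cultured library, which allows a normalized count of up to 2.83 to 2.86 per library at 3 reads, for counting error only. Gabra6 and Gabrp gave no read at all in the 18 libraries. Per kilobase of exon, Grik3, Grik5 and Gabbr1 held the first 3 places in culture, in GFP+ cells and in unsorted cells of both hosts. In GFP- cells the order was Gabbr1, Grik5, Grik3 and Grm6.

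**Figure D1:**
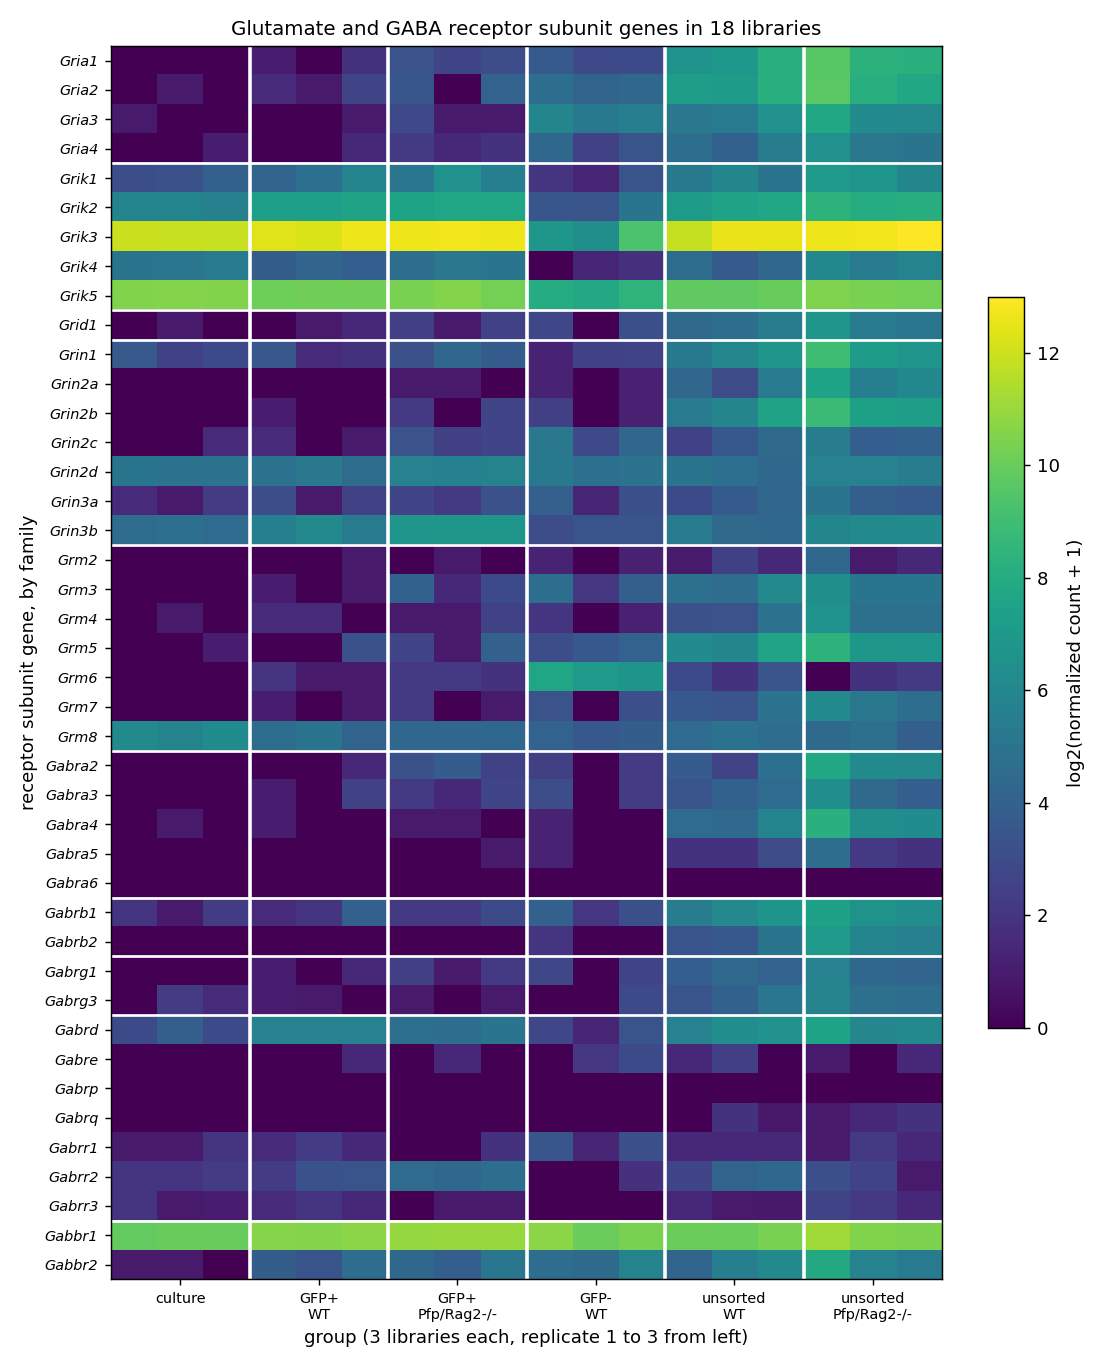
Heat map of log2(normalized count + 1) for 42 of the 47 receptor subunit genes (rows, by family) in 18 libraries (columns, 3 per group). Grik3, Grik5 and Gabbr1 form the bright rows in all groups except GFP- cells, where of these Gabbr1 is the brightest, and most AMPA, NMDA and GABA-A rows are dark outside the unsorted cells.

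Kainate subunits made up 82.7% ± 0.564 (SD, n = 3) of the summed receptor level per kilobase in culture, 76.5% ± 1.19 in GFP+ cells of WT hosts and 75.0% ± 1.24 in those of Pfp/Rag2-/- hosts. Grik3 alone held 48.5% in culture and 54.8% and 53.7% in GFP+ cells. In GFP- cells the kainate share was 25.6% ± 9.88 and the GABA-B share 54.0% ± 6.45. AMPA subunits held 0.0117% in culture and 0.0431% and 0.183% in GFP+ cells. They held 2.81% in GFP- cells (2.21 to 3.40), 4.30% in unsorted cells of WT hosts (2.95 to 6.16) and 6.73% in those of Pfp/Rag2-/- hosts.

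**Figure D2:**
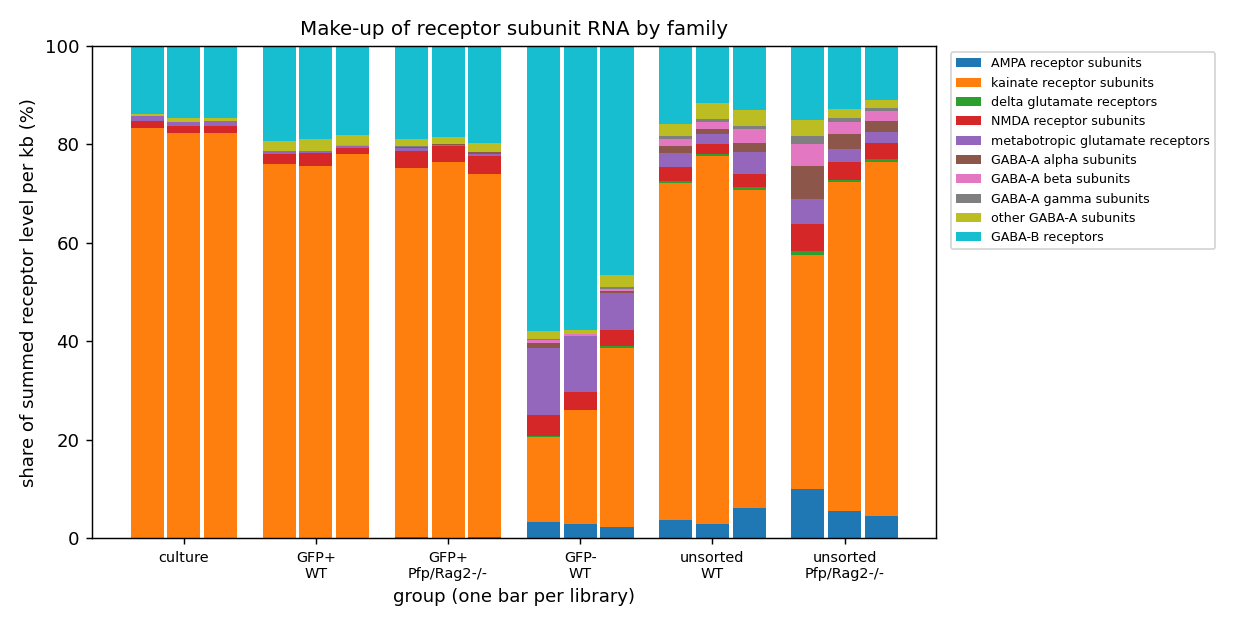
Share of each receptor family (percent) in the summed level per kilobase of exon of the 47 genes, with 1 bar per library. The kainate part is 82.7% in culture and 25.6% in GFP- cells on average, and library 1 of the unsorted Pfp/Rag2-/- cells has the largest AMPA part, at 10.1%.

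The promoter sequence upstream of 4 genes picked from this pattern is shown to set it beside a known control element. They are Grik3, the most abundant member in tumour cells, Grik2, a kainate member also read there, and Gria2 and Grin1, which were highest in unsorted cells. RE1 is the binding element of REST, a repressor of neuronal genes in other cell types. Each run covers 250 to 51 bases before the gene's start in RefSeq, build GRCm38.p6, on the gene's own strand, 5′ to 3′. Capitals mark a stretch within 2 mismatches of the 13 fixed letters of the RE1 core, searched as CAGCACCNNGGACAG on both strands.
Gria2, chr3:80802886-80803085, minus strand: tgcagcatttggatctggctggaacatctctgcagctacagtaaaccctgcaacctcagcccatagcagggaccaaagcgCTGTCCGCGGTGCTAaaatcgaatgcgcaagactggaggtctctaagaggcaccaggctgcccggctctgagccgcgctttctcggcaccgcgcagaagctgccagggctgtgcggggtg
Grin1, chr2:25319238-25319437, minus strand: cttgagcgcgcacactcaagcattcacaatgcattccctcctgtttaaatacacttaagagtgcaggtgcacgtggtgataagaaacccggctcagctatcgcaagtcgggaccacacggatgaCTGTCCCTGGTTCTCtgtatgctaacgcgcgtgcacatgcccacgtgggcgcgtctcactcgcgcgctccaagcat
Grik2, chr10:49788805-49789004, minus strand: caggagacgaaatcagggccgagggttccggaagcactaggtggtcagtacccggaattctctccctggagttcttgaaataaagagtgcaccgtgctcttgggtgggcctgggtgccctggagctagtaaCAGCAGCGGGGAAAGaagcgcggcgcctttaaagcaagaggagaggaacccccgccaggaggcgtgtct
Grik3, chr4:125490446-125490645, plus strand: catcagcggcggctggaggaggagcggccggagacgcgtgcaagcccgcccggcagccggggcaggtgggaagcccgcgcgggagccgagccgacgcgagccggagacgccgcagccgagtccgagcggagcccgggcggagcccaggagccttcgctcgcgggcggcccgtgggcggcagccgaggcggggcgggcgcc
The Gria2 stretch had 1 mismatch and lay on the opposite strand of the gene, and that of Grin1 had 2 and also lay on the opposite strand. The Grik2 stretch had 2 mismatches, on the gene's strand. In the Grik3 window no stretch came within 2 mismatches of these letters. Windows of 300 bases were at hand for 32 of the 47 members, and 4 of these 32 had a match (the fourth was Gabrb1), against 599 of 27025 genes (2.22%) and 632 of 32851 windows (1.92%) in all. The printed genes thus hold most of the matching members. No window of Gria4, Gabra2, Gabra4 or Gabrb2, also highest in unsorted cells, came within 2 mismatches. Neither did those of Grik5 and Gabbr1, the next most abundant in tumour cells. The Grik3 window held 50 CG dinucleotides against a median of 7 over all windows, and 0.855% of windows held as many or more. The median over the member windows was 12, and those of Gabbr2, almost unread in culture, and Grik4 held 46 and 42. A match of letters is a description and not a site.

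Kainate receptor genes gave most of the receptor RNA of the tumour cells. Grik3 (ENSMUSG00000001985; GRCm38 chr4:125490700-125714173, + strand) had normalized counts of 3880.5, 3788 and 3767 in culture, 5178, 4893 and 6408 in GFP+ WT cells, 6406, 6779 and 6546 in GFP+ Pfp/Rag2-/- cells, 115, 84.7 and 622 in GFP- cells, 3684, 6259.8 and 6013 in unsorted WT cells, and 6367, 6614 and 8102 in unsorted Pfp/Rag2-/- cells. GFP- cells were the low group, their highest library at 622 against 3684 in the lowest of all others. That library, GFP- 3, was also the highest GFP- library in the summed markers of oligodendrocyte precursors (7990.0 against 1764 and 1799.6), whose part was not tested. Grik5 (ENSMUSG00000003378; chr7:25009849-25072346, - strand) stood at 1454, 1510.2 and 1497 in culture, 1099, 1146 and 1167 in GFP+ WT cells, 1332, 1502 and 1253 in GFP+ Pfp/Rag2-/- cells, 262, 225 and 342 in GFP- cells, 900.4, 892 and 998 in unsorted WT cells, and 1403, 1323 and 1222 in unsorted Pfp/Rag2-/- cells. It too was lowest in GFP- cells, and the cultured libraries were above the GFP+ libraries of WT hosts with no overlap. Grik2 stood at 56.7, 57.5 and 48.7 in culture, 159.9, 162 and 177 in GFP+ WT cells, 187, 201 and 194 in GFP+ Pfp/Rag2-/- cells, 10.3, 9.24 and 31.6 in GFP- cells, 133, 179.9 and 194 in unsorted WT cells, and 329.6, 265 and 269.6 in unsorted Pfp/Rag2-/- cells. Here the 6 GFP+ libraries lay above the 3 cultured ones. Grik1 stood at 7.56, 8.48 and 15.3 in culture, 17.2, 25.7 and 56.2 in GFP+ WT cells, 33.8, 92.8 and 47.9 in GFP+ Pfp/Rag2-/- cells, 2.94, 1.54 and 9.204 in GFP- cells, 36.9, 60.3 and 30.5 in unsorted WT cells, and 131, 111 and 62.2 in unsorted Pfp/Rag2-/- cells, with wide spread within each tumour group. Grik4, which had no group mean of 100, ranged from 31.2 to 40.1 in culture, 13.4 to 34.9 in GFP+ cells, 0 to 2.63 in GFP- cells and 11.7 to 65.7 in unsorted cells.

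All 5 kainate genes fell in GFP- cells against GFP+ cells of WT hosts. Of the 14 receptor genes tested there, 7 fell and 3 rose, where 76.4% of 16083 genes were called (33.7% lower, 42.7% higher). A call is thus common among all genes here. Of the 5, Grik3 fell by the most (log2 difference -4.89, SE 0.71, limma adjusted p = 0.00087), followed by Grik2 (log2 difference -3.43, SE 0.48, limma adjusted p = 0.000723). Grik4 fell (log2 difference -2.93, SE 0.52, limma adjusted p = 0.00217), as did Grik1 (log2 difference -2.70, SE 0.66, limma adjusted p = 0.00857). Grik5 fell the least (log2 difference -2.06, SE 0.17, limma adjusted p = 9.85e-05). The median of the 14 was -1.40 against 0.19 over all genes tested.

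Against cultured cells, kainate genes moved in both directions. In GFP+ cells of WT hosts 6 of 10 receptor genes tested rose and 3 fell, where 65.6% of 14261 genes were called (30.3% higher, 35.3% lower). In those of Pfp/Rag2-/- hosts 9 of 13 rose and 1 fell, where 72.2% of 14487 were called (35.1% higher, 37.1% lower). The shares of members called are thus near or moderately above those of all genes, and both comparisons use the same cultured libraries. Without the library labelled 1 of Pfp/Rag2-/- hosts 11 of the 13 were called. Grik2 rose in WT (log2 difference 1.60, SE 0.14, limma adjusted p = 1.66e-05) and in Pfp/Rag2-/- hosts (log2 difference 1.82, SE 0.12, limma adjusted p = 1.66e-06). Grik3 rose less, by 0.52 with SE 0.09 and limma adjusted p = 0.00115 in WT and 0.79 with SE 0.04 and limma adjusted p = 1.99e-07 in Pfp/Rag2-/- hosts, and these 2 calls were lost when all 18 libraries shared 1 estimate of the spread. Grik1 rose as well (1.47 and 2.31 on the log2 scale, adjusted p = 0.0197 and 0.000756), the first call being lost without cultured library 1 (1.29) or 2 (1.36). Grik5 fell in WT (log2 difference -0.39, SE 0.05, limma adjusted p = 0.000207) and was not called in Pfp/Rag2-/- hosts (log2 difference -0.13, SE 0.07, limma adjusted p = 0.102), and likewise Grik4 (log2 difference -1.16, SE 0.24, limma adjusted p = 0.00278, and log2 difference -0.21, SE 0.22, limma adjusted p = 0.397). For each of the 5 kainate genes every GFP- library was below every GFP+ library. All 5 had been called lower in GFP- cells on libraries that are part of this comparison, so this adds no support. The share of all genes without overlap was not counted, and 76.4% of all genes were called in GFP- against GFP+ cells of WT hosts.

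Between unsorted and GFP+ cells, none of the 5 kainate genes passed the test in WT hosts and 2 did in Pfp/Rag2-/- hosts. In WT hosts Grik3 stood at -0.08 with SE 0.21 and limma adjusted p = 0.829 (95% interval -0.58 to 0.43) and Grik5 at -0.29 with SE 0.08 and limma adjusted p = 0.0537, a value that was called with TMM factors, edgeR and DESeq2. In Pfp/Rag2-/- hosts Grik2 rose (log2 difference 0.56, SE 0.11, limma adjusted p = 0.0107), and Grik4 was called at 0.83 with SE 0.25 and limma adjusted p = 0.0465, a call lost in most other settings. Grik3 there stood at 0.09 with SE 0.09 and limma adjusted p = 0.504, with an interval of -0.13 to 0.30.

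**Figure D3:**
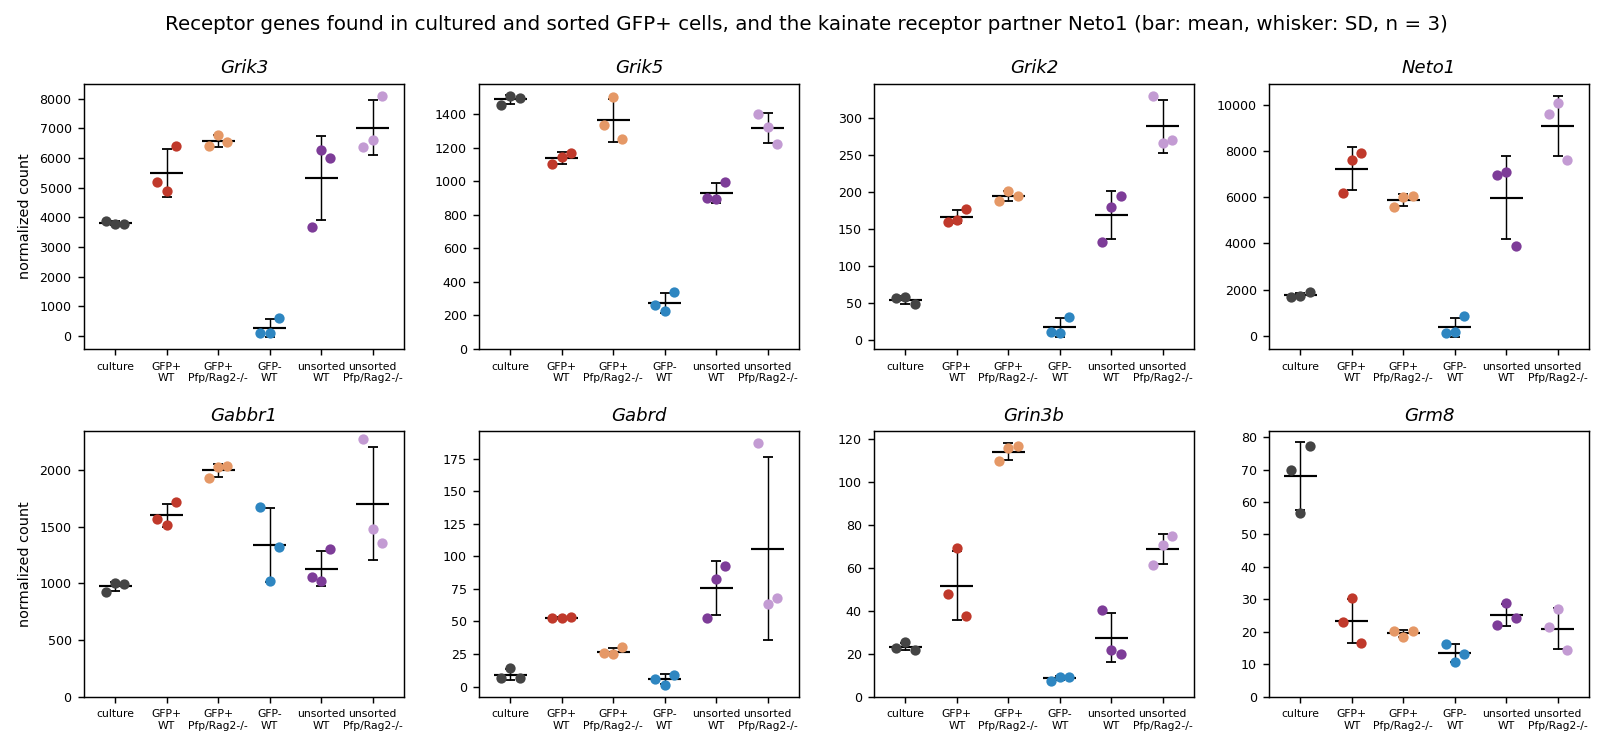
Normalized counts of 7 receptor subunit genes found in cultured or GFP+ cells and of Neto1 (y axes, linear from 0) in the 6 groups (x axes). Points are libraries, bars means and whiskers SD (n = 3). Grik3, Grik5, Grik2 and Neto1 are low in GFP- cells, and Grm8 is highest in culture.

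Auxiliary proteins of these receptors were also read in tumour cells. Of 31 listed partners of glutamate receptors, 18 were tested in GFP+ cells of WT hosts against culture, where 8 rose and 7 fell, and 19 in Pfp/Rag2-/- hosts, where 12 rose and 5 fell. Of all genes 65.6% and 72.2% were called in these comparisons. Neto1 encodes an auxiliary subunit of kainate receptors. It stood at 1689.9, 1738 and 1882 in culture, 6182, 7616 and 7931 in GFP+ WT cells, 5562, 6008 and 6049 in GFP+ Pfp/Rag2-/- cells, 98.6, 154 and 835 in GFP- cells, 6965, 7091 and 3894 in unsorted WT cells, and 9597, 10079 and 7616 in unsorted Pfp/Rag2-/- cells. It was named here after its values were seen. GFP+ libraries of both hosts lay above culture with no overlap, with differences of 2.03 with SE 0.09 and limma adjusted p = 5.23e-07 in WT and 1.73 with SE 0.05 and limma adjusted p = 1.5e-08 in Pfp/Rag2-/- hosts. Neto2, the other such subunit, fell in both (WT log2 difference -0.88, SE 0.08, limma adjusted p = 2.71e-05, and Pfp/Rag2-/- log2 difference -1.23, SE 0.09, limma adjusted p = 3.24e-06). Cacng4 and Cacng5, which encode AMPA receptor regulatory proteins, rose in GFP+ cells: Cacng5 by 4.52 with SE 0.25 and limma adjusted p = 1.39e-06 in WT and 4.61 with SE 0.23 and limma adjusted p = 2.88e-07 in Pfp/Rag2-/- hosts, and Cacng4 by 3.30 with SE 0.31 and limma adjusted p = 2.72e-05 and 4.01 with SE 0.23 and limma adjusted p = 6.08e-07. The AMPA subunits themselves were near 0 in the same cells. In GFP- cells 12 of 21 partners tested fell against GFP+ cells and 6 rose, where 33.7% of all genes were lower and 42.7% higher, with Neto1 (log2 difference -4.94, SE 0.74, limma adjusted p = 0.00102) and Cacng7 (log2 difference -3.95, SE 0.57, limma adjusted p = 0.000853) the lowest.

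AMPA receptor genes were near 0 in culture and at most 15.7 in GFP+ cells, and were read in unsorted cells and, for Gria3 above all, in GFP- cells. Gria1 encodes the GluA1 subunit. It had 0, 0 and 0 in culture, 0.958, 0 and 2.76 in GFP+ WT cells, 9.13, 5.51 and 7.37 in GFP+ Pfp/Rag2-/- cells, 11.8, 6.16 and 6.57 in GFP- cells, 96.9, 119 and 292 in unsorted WT cells, and 792, 327 and 297 in unsorted Pfp/Rag2-/- cells. Gria2 encodes the subunit that keeps calcium out of the channel. It had 0, 0.943 and 0 in culture, 1.92, 0.9501 and 5.53 in GFP+ WT cells, 10.05, 0 and 15.7 in GFP+ Pfp/Rag2-/- cells, 25.01, 16.9 and 19.7 in GFP- cells, 152, 146 and 306 in unsorted WT cells, and 803, 287 and 221 in unsorted Pfp/Rag2-/- cells. All 6 unsorted libraries lay far above the 12 others for both genes. Gria3 differed in that GFP- cells also held it, with 0.945, 0 and 0 in culture, 0, 0 and 0.921 in GFP+ WT cells, 6.39, 0.918 and 0.921 in GFP+ Pfp/Rag2-/- cells, 61.8, 36.97 and 46.02 in GFP- cells, 35.98, 37.8 and 93.2 in unsorted WT cells, and 222, 77 and 68.5 in unsorted Pfp/Rag2-/- cells. Its GFP- and unsorted WT libraries overlapped, and Gria4 ranged from 4.62 to 19.1 in GFP- and 15.3 to 93.3 in unsorted cells against at most 3.65 in tumour cells.

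In unsorted against GFP+ cells, 16 of 28 receptor genes tested rose in WT hosts and 1 fell, where 16.8% of 15275 genes were called (10.3% higher, 6.46% lower). In Pfp/Rag2-/- hosts 27 of 38 rose and 2 fell, where 30.2% of 15324 were called (19.1% higher, 11.1% lower). Many of the genes passed the filter on low values only through the unsorted libraries and so had to be higher there. These counts describe the genes that could be tested and not all 47, and nothing is read from them. The p-values of single genes that passed only through the group where they were higher, here, above and below, carry the same limit. Gria1, Gria2, Grin2b, Grm5, Gabrb1 and Gad2 are among these genes, and their levels in each library are the description. Without the GFP+ library labelled 1 of Pfp/Rag2-/- hosts 29 genes were called there as well, and 28 without unsorted library 1. Gria1 rose by 6.28 with SE 0.61 and limma adjusted p = 0.0061 in WT and 5.70 with SE 0.40 and limma adjusted p = 0.000435 in Pfp/Rag2-/- hosts. Gria2 rose by 5.83 with SE 0.52 and limma adjusted p = 0.0061 and 6.03 with SE 1.05 and limma adjusted p = 0.00668. Gria3 rose (log2 difference 5.15, SE 0.68, limma adjusted p = 0.00282 in Pfp/Rag2-/- hosts), and in WT hosts 188 reads stood against 1 read in GFP+ cells, a ratio of 179 with a 95% counting interval of 31.7 to 7105. Grid1, whose product binds synaptic organisers, rose in both hosts as well, from at most 4.61 in every GFP+ library to 21.2 to 109 in unsorted cells. The neuron markers moved with these genes, from 1180 to 1848 in GFP+ to 3276 to 6522 in unsorted cells of WT hosts. So did the summed 11 astrocyte markers, from 5952 to 7511 in GFP+ to 9478 to 12015 in unsorted cells of WT hosts. The part of either cell type in the result was not tested.

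GFP- cells, sorted from the same kind of suspension as the unsorted cells, held less RNA of most of these genes. Gria3 and Grm6 were among the exceptions. Of 31 receptor genes tested in unsorted against GFP- cells of WT hosts, 22 rose, 1 fell and 8 were not called. Of all 16418 genes 73.7% were called there (33.8% higher, 39.9% lower). Many of the 31 passed the filter on low values only through the unsorted libraries and so had to be higher there. Nothing is read from this count, and the levels in each library are the description. Gria1 was higher by 4.09 with SE 0.49 and limma adjusted p = 0.000194, and Grik3 by 4.82 with SE 0.68 and limma adjusted p = 0.000422. Gria3 did not differ by the test (log2 difference 0.09, SE 0.44, limma adjusted p = 0.863, 95% interval -0.94 to 1.11). Against GFP+ cells, Gria3 rose in GFP- cells, with 101 reads against 1, a ratio of 154 with a counting interval of 27.0 to 6136 (limma adjusted p = 7.8e-05), and Gria2 rose by 2.68 with SE 0.50 and limma adjusted p = 0.00264. Both genes passed the filter there only through the GFP- libraries and so had to be higher in them.

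NMDA receptor genes split by subunit. Grin1 encodes the obligatory subunit. It had 11.3, 4.71 and 6.68 in culture, 10.53, 1.9 and 2.76 in GFP+ WT cells, 8.22, 18.4 and 12.9 in GFP+ Pfp/Rag2-/- cells, 1.47, 4.62 and 5.26 in GFP- cells, 36.9, 62.98 and 108 in unsorted WT cells, and 503, 141 and 109 in unsorted Pfp/Rag2-/- cells. Grin2b encodes a subunit that binds glutamate. It had 0, 0 and 0 in culture, 0.958, 0 and 0 in GFP+ WT cells, 3.65, 0 and 5.53 in GFP+ Pfp/Rag2-/- cells, 4.41, 0 and 1.31 in GFP- cells, 41.5, 59.4 and 179 in unsorted WT cells, and 464, 168 and 154 in unsorted Pfp/Rag2-/- cells. Both were highest in unsorted cells, where library 1 of Pfp/Rag2-/- hosts stood apart. Grin1 rose in unsorted against GFP+ cells by 3.68 with SE 0.62 and limma adjusted p = 0.0125 in WT and 3.88 with SE 0.58 and limma adjusted p = 0.00407 in Pfp/Rag2-/- hosts, and Grin2b by 6.20 with SE 0.76 and limma adjusted p = 0.00235 in the latter. In WT hosts Grin2b had 316 reads against 1 in GFP+ cells, a ratio of 301 with a counting interval of 53.6 to 11916. Without unsorted WT library 3 the calls of Grin1 (log2 difference 3.30), Grm5 (5.05) and Gabrb1 (3.30) were lost in that host, and without GFP+ WT library 2 that of Gabrb1 (3.34).

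Grin3b, for a glycine-binding subunit that lowers calcium entry, was instead a gene of tumour cells. It had 22.7, 25.5 and 21.9 in culture, 47.9, 69.4 and 37.8 in GFP+ WT cells, 109.6, 116 and 117 in GFP+ Pfp/Rag2-/- cells, 7.36, 9.24 and 9.204 in GFP- cells, 40.6, 21.6 and 20.03 in unsorted WT cells, and 61.3, 70.7 and 74.8 in unsorted Pfp/Rag2-/- cells. The GFP+ libraries of Pfp/Rag2-/- hosts were the highest of all. Against culture it rose in WT (log2 difference 1.07, SE 0.25, limma adjusted p = 0.00554) and Pfp/Rag2-/- hosts (log2 difference 2.24, SE 0.15, limma adjusted p = 1.89e-06), and in GFP- cells it fell (log2 difference -2.42, SE 0.33, limma adjusted p = 0.000659). Of its exon bases 32.1% overlap Tmem259 on the opposite strand. The means of Tmem259 were 3966 in culture and 4310 and 4712 in GFP+ cells of WT and Pfp/Rag2-/- hosts. They were 4564 in GFP- cells, where Grin3b was lowest, and 3207 and 3579 in unsorted cells of WT and Pfp/Rag2-/- hosts. The part of Tmem259 in the Grin3b values was not tested. Without the counting strand, which is not given in the sources used here, reads of the overlap cannot be told apart. Grin2d, a subunit found early in brain development, stood at 29.6 to 32.1 in culture and 19.2 to 55.3 in the other libraries. It rose in GFP+ cells of Pfp/Rag2-/- hosts against culture (log2 difference 0.77, SE 0.17, limma adjusted p = 0.0026) and was not called in WT hosts (log2 difference -0.10, SE 0.23, limma adjusted p = 0.723). Grin2a, the subunit of mature synapses, had no read in culture or in GFP+ cells of WT hosts and 7.20 to 182 in unsorted cells. Grin2c and Grin3a were at most 9.13 in cultured and GFP+ cells, and GFP- library 1 held 35.3 of Grin2c and 14.7 of Grin3a.

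Among metabotropic glutamate receptors, 2 genes were not highest in unsorted cells. Grm8, a receptor that lowers cyclic AMP, ranged from 56.6 to 77.3 in culture against 16.6 to 30.4 in GFP+ cells, with no overlap. It fell in GFP+ cells of WT (log2 difference -1.53, SE 0.26, limma adjusted p = 0.000849) and of Pfp/Rag2-/- hosts (log2 difference -1.73, SE 0.19, limma adjusted p = 4.48e-05). Grm6 is known as the receptor of retinal ON bipolar cells. It had 0, 0 and 0 in culture, 2.87, 0.9501 and 0.921 in GFP+ WT cells, 3.65, 3.67 and 2.76 in GFP+ Pfp/Rag2-/- cells, 205, 126 and 104 in GFP- cells, 6.46, 2.699 and 9.58 in unsorted WT cells, and 0, 2.72 and 3.61 in unsorted Pfp/Rag2-/- cells. Only the GFP- libraries were above 10, and it rose there against GFP+ cells (log2 difference 5.84, SE 0.43, limma adjusted p = 7.12e-05) and fell in unsorted against GFP- cells (log2 difference -4.40, SE 0.48, limma adjusted p = 0.000125). Grm6 passed the filter on low values only through the GFP- libraries, so both directions were fixed and the levels are the description. Grm5, whose product couples to calcium release, followed the AMPA genes. It had 0, 0 and 0.954 in culture, 0, 0 and 8.29 in GFP+ WT cells, 5.48, 0.918 and 14.7 in GFP+ Pfp/Rag2-/- cells, 7.36, 10.8 and 15.8 in GFP- cells, 75.7, 62.1 and 192 in unsorted WT cells, and 331, 115 and 111 in unsorted Pfp/Rag2-/- cells. In unsorted against GFP+ cells Grm5 rose by 5.54 with SE 0.92 and limma adjusted p = 0.0124 in WT and 4.81 with SE 0.79 and limma adjusted p = 0.00545 in Pfp/Rag2-/- hosts. Grm2, Grm3, Grm4 and Grm7 were at most 15.5 in every cultured and GFP+ library and reached 97.7 in unsorted cells.

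The alpha, beta and gamma GABA-A genes described here were at most 14.7 in each cultured and GFP+ library. Gabra4 encodes an alpha subunit. It had 0, 0.943 and 0 in culture, 0.958, 0 and 0 in GFP+ WT cells, 0.913, 0.918 and 0 in GFP+ Pfp/Rag2-/- cells, 1.47, 0 and 0 in GFP- cells, 22.1, 20.7 and 56.6 in unsorted WT cells, and 303, 85.1 and 78.4 in unsorted Pfp/Rag2-/- cells. It was at most 1.47 in each of the 12 libraries of cultured and sorted cells and at least 20.7 in each unsorted library. Gabra2 had 0, 0 and 0 in culture, 0, 0 and 1.84 in GFP+ WT cells, 8.22, 12.9 and 4.61 in GFP+ Pfp/Rag2-/- cells, 4.41, 0 and 3.94 in GFP- cells, 12.9, 5.398 and 26.1 in unsorted WT cells, and 217, 76.1 and 67.6 in unsorted Pfp/Rag2-/- cells. Gabrb1 had 2.83, 0.943 and 3.82 in culture, 1.92, 2.85 and 14.7 in GFP+ WT cells, 3.65, 3.67 and 6.45 in GFP+ Pfp/Rag2-/- cells, 14.7, 3.08 and 7.89 in GFP- cells, 43.4, 67.5 and 105 in unsorted WT cells, and 171, 96.02 and 82.05 in unsorted Pfp/Rag2-/- cells. Within each host, neither Gabra2 nor Gabrb1 overlapped between GFP+ and unsorted cells. Gabra2 reached 12.9 in GFP+ cells of Pfp/Rag2-/- hosts, which lay within the range of unsorted cells of the other host. Gabra3, Gabra5, Gabrg1 and Gabrg3, each at most 7.36 in cultured and sorted cells, ranged from 2.70 to 80.8 in unsorted cells.

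In unsorted against GFP+ cells Gabrb1, for a beta subunit, rose by 3.61 with SE 0.67 and limma adjusted p = 0.0165 in WT and 4.35 with SE 0.37 and limma adjusted p = 0.000973 in Pfp/Rag2-/- hosts. Gabra2 rose by 3.55 with SE 0.53 and limma adjusted p = 0.00395 in Pfp/Rag2-/- hosts. Gabra4 had 112 reads against 1 in WT hosts (ratio 107, counting interval 18.7 to 4248). In Pfp/Rag2-/- hosts its 522 reads against 2 gave a ratio of 256 with an interval of 70.4 to 2116. Gabrb2, another beta subunit, had no read in the GFP+ libraries and 49.6 to 125 in unsorted cells of Pfp/Rag2-/- hosts, at least 84.5-fold higher when 3 reads over the group are the floor.

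**Figure D4:**
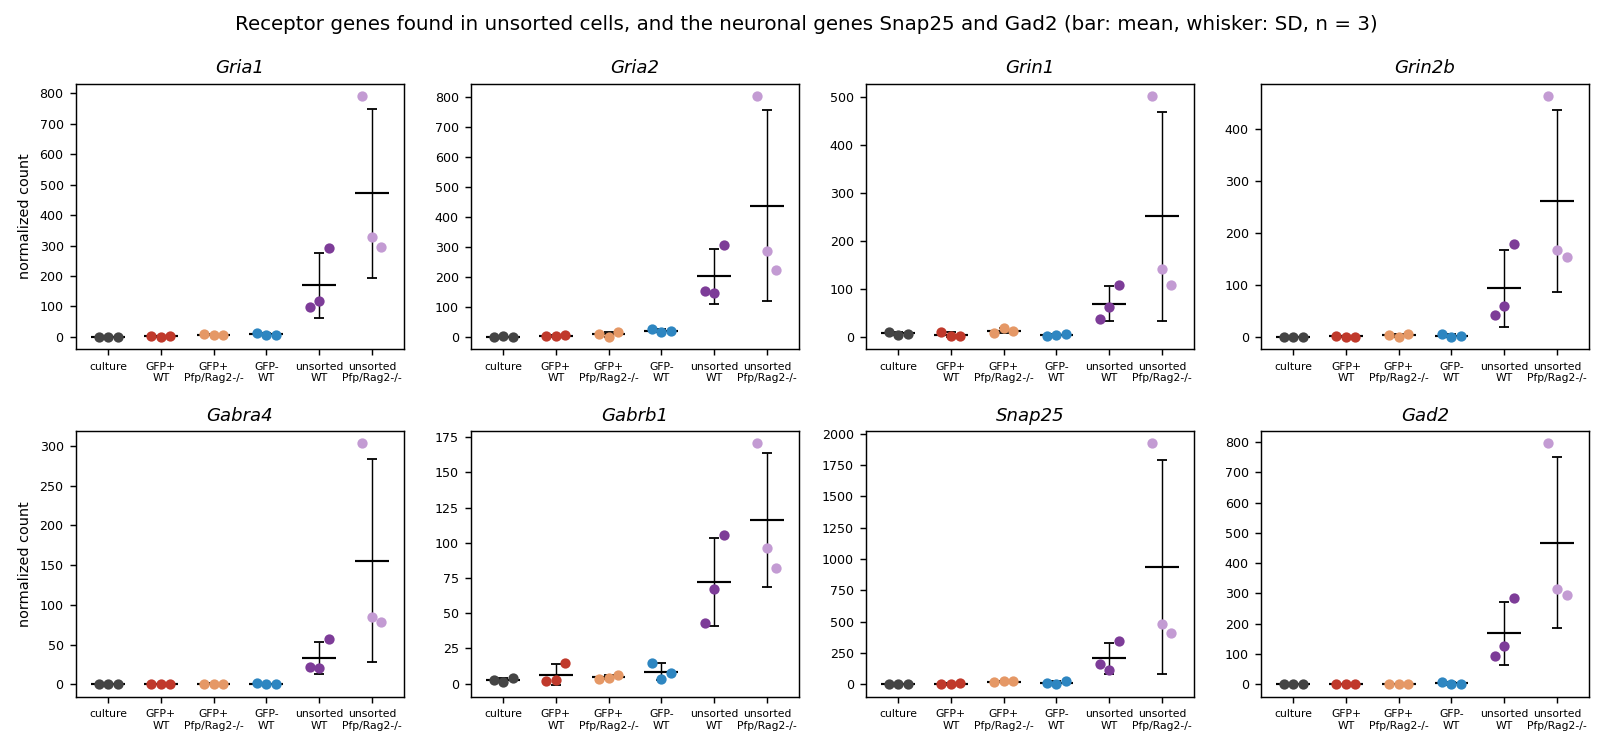
Normalized counts of 6 receptor subunit genes highest in unsorted cells and of the neuronal genes Snap25 and Gad2 (y axes, linear) in the 6 groups (x axes). Points are libraries, bars means and whiskers SD (n = 3). All 8 genes are at most 27.6 in cultured and sorted cells, and library 1 of the unsorted Pfp/Rag2-/- cells is the highest point in every panel.

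Gabrd, for the delta subunit of receptors outside synapses, was a GABA-A gene read in GFP+ as well as in unsorted cells. It had 6.61, 14.1 and 6.68 in culture, 52.7, 52.3 and 53.4 in GFP+ WT cells, 25.6, 24.8 and 30.4 in GFP+ Pfp/Rag2-/- cells, 5.89, 1.54 and 9.204 in GFP- cells, 52.6, 82.8 and 92.3 in unsorted WT cells, and 187, 63.4 and 67.6 in unsorted Pfp/Rag2-/- cells. GFP+ libraries lay above all cultured and all GFP- libraries. It rose against culture in WT (log2 difference 2.49, SE 0.31, limma adjusted p = 0.000161) and Pfp/Rag2-/- hosts (log2 difference 1.53, SE 0.33, limma adjusted p = 0.00277), and fell in GFP- cells (log2 difference -3.26, SE 0.54, limma adjusted p = 0.00149). In unsorted against GFP+ cells it rose in Pfp/Rag2-/- hosts (log2 difference 1.76, SE 0.41, limma adjusted p = 0.0191), a call lost without GFP+ library 2 (1.70) or 3 (1.84). Gabrr2, a rho subunit best known from the retina, reached 19.3 to 24.9 in GFP+ cells of Pfp/Rag2-/- hosts and 0 to 20.03 in all other libraries. It rose against culture (log2 difference 2.47, SE 0.31, limma adjusted p = 0.000107) and fell in unsorted cells of that host (log2 difference -2.26, SE 0.60, limma adjusted p = 0.0284), a call lost without GFP+ library 2 (-2.34) or 3 (-2.17) or unsorted library 2 (-2.47). In both comparisons Gabrr2 passed the filter on low values only through the GFP+ libraries and so had to be higher in them. The remaining GABA-A genes Gabre, Gabrq, Gabrr1 and Gabrr3 stayed at or under 10.3 in each library.

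GABA-B receptor RNA was uneven between its 2 genes. Gabbr1 (ENSMUSG00000024462; chr17:37045966-37075067, + strand) encodes the subunit that binds GABA. It had 927, 1002 and 991 in culture, 1572, 1514 and 1717 in GFP+ WT cells, 1929.6, 2029.9 and 2034 in GFP+ Pfp/Rag2-/- cells, 1672, 1019.8 and 1323 in GFP- cells, 1061, 1024 and 1307 in unsorted WT cells, and 2276, 1480.2 and 1357 in unsorted Pfp/Rag2-/- cells. It was high in every group, GFP- cells included, where it was not called against GFP+ cells (log2 difference -0.29, SE 0.18, limma adjusted p = 0.191) or unsorted cells (log2 difference -0.22, SE 0.20, limma adjusted p = 0.337). Gabbr2 encodes the subunit that couples to the G protein. It had 0.945, 0.943 and 0 in culture, 13.4, 9.501 and 23.9 in GFP+ WT cells, 20.1, 13.8 and 33.2 in GFP+ Pfp/Rag2-/- cells, 23.5, 21.6 and 55.2 in GFP- cells, 17.5, 46.8 and 70.5 in unsorted WT cells, and 227, 52.5 and 40.6 in unsorted Pfp/Rag2-/- cells. Cultured cells held 2 reads of Gabbr2 in all 3 libraries together. Gabbr1 rose against culture by 0.72 with SE 0.06 and limma adjusted p = 2.33e-05 in WT and 1.04 with SE 0.05 and limma adjusted p = 1.75e-07 in Pfp/Rag2-/- hosts. Gabbr2 rose in Pfp/Rag2-/- hosts, with 73 reads against 2, a ratio of 35.4 with a counting interval of 9.45 to 298, and was not tested in WT hosts because of the filter. GFP- cells held 21.6 to 55.2 of it, and the microglia and macrophage markers moved with it between culture (640 to 739) and GFP+ cells of Pfp/Rag2-/- hosts (6732 to 9871). Their part was not tested. In unsorted against GFP+ cells of WT hosts Gabbr1 fell (log2 difference -0.51, SE 0.11, limma adjusted p = 0.027), a call lost without GFP+ library 1 (-0.52), 2 (-0.55) or 3 (-0.46) or unsorted library 2 (-0.44).

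Among the genes that make and move the 2 transmitters, some were read mostly in unsorted cells and others were not called there. Gad1 and Gad2, the enzymes that make GABA, and Slc32a1, which loads it into vesicles, were read in unsorted cells. Gad2 had 0, 0 and 0 in culture, 0, 0 and 0 in GFP+ WT cells, 0, 0.918 and 1.84 in GFP+ Pfp/Rag2-/- cells, 8.83, 1.54 and 0 in GFP- cells, 93.2, 126 and 286 in unsorted WT cells, and 796, 314 and 295 in unsorted Pfp/Rag2-/- cells. It rose in unsorted against GFP+ cells of WT hosts, at least 181-fold (570 reads against 0, taking 3 reads over the group as the floor, limma adjusted p = 0.00194). In Pfp/Rag2-/- hosts 1570 reads stood against 3, a ratio of 512 with a counting interval of 175 to 2488 (limma adjusted p = 0.000375). Slc32a1 rose as well, with 276 reads against 1 in WT (ratio 263, interval 46.8 to 10413). Its 565 reads against 3 in Pfp/Rag2-/- hosts gave a ratio of 184 with an interval of 62.8 to 897. Of the 10 genes of glutamate and GABA metabolism tested, 3 rose and 0 fell in unsorted against GFP+ cells of WT hosts, where 16.8% of all genes were called, and 7 were not called. In Pfp/Rag2-/- hosts 5 rose and 1 fell, where 30.2% were called. In GFP+ cells against culture, 5 of 10 transporters tested rose in WT hosts and 3 fell, and 7 of 11 rose in Pfp/Rag2-/- hosts and 2 fell, beside 65.6% and 72.2% of all genes called there. Slc1a1, a glutamate transporter of neurons, rose by 3.31 with SE 0.30 and limma adjusted p = 2.36e-05 and 3.84 with SE 0.29 and limma adjusted p = 3.3e-06. Slc1a2, the main astrocytic glutamate transporter, rose by 4.71 with SE 0.99 and limma adjusted p = 0.00293 in WT and 6.90 with SE 0.26 and limma adjusted p = 5.18e-08 in Pfp/Rag2-/- hosts, although its GFP+ WT libraries spread from 10.45 to 294.7 and GFP- cells held 353, 46.2 and 427. The astrocyte marker Aqp4 stood at 0.958, 2.85 and 42.4 in GFP+ cells of WT hosts. All 11 astrocyte markers together summed to 16089 to 16572 in culture and 5952 to 7511 in these cells, and their part was not tested. Of 13 GABA receptor partners, 11 were tested in GFP- against GFP+ cells, where 5 rose and 4 fell, near the 76.4% of all genes called. Kctd12, an auxiliary subunit of GABA-B receptors, rose there by 5.55 with SE 0.32 and limma adjusted p = 3.57e-05, and Lhfpl4, which holds GABA-A receptors at synapses, fell (log2 difference -4.02, SE 0.74, limma adjusted p = 0.00253).

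GFP+ tumour cells of the 2 hosts differed in 7 receptor genes, most of them lower in WT hosts. There 1 of 13 receptor genes tested was higher in WT hosts and 6 were lower, where 30.4% of 14807 genes were called (15.3% higher, 15% lower), and the median of the 13 was -0.50 against -0.02 over all genes. Gabrd was higher (log2 difference 0.95, SE 0.19, limma adjusted p = 0.0115), with 52.7, 52.3 and 53.4 in WT against 25.6, 24.8 and 30.4 in Pfp/Rag2-/- hosts and no overlap. Grin3b was lower (log2 difference -1.17, SE 0.23, limma adjusted p = 0.0112), and so was Gabbr1 (log2 difference -0.32, SE 0.06, limma adjusted p = 0.00923). Grin2d (log2 difference -0.87, SE 0.22, limma adjusted p = 0.0257) and Gabrr2 (log2 difference -1.56, SE 0.38, limma adjusted p = 0.022) were lower as well. Gabrr2 passed the filter on low values only through the Pfp/Rag2-/- libraries and so had to be lower in WT hosts. Of the kainate genes, Grik4 (log2 difference -0.94, SE 0.26, limma adjusted p = 0.0346) and Grik5 (log2 difference -0.26, SE 0.08, limma adjusted p = 0.0403) were lower. For each of these 7 genes the hosts did not overlap. The genes were picked by the test on the same libraries, so this adds no support. The share of all genes without overlap was not counted. Grik3 was not called (log2 difference -0.27, SE 0.10, limma adjusted p = 0.0804, 95% interval -0.50 to -0.03), and neither was Grik2 (log2 difference -0.22, SE 0.10, limma adjusted p = 0.144). The number called was 3 without the library labelled 1 of Pfp/Rag2-/- hosts, 3 without library 2 and 4 without library 3, and Gabrd, Gabbr1 and Grin3b were called each time. Without both GFP+ libraries numbered 1, which carried NK cell RNA, 2 genes were called, Gabbr1 and Grin1. The markers of oligodendrocyte precursors, a lineage whose genes GL261 cells carry, summed to 48657 to 68103 in WT and 76535 to 86298 in Pfp/Rag2-/- hosts, those of pericytes and fibroblasts to 8908 to 10283 and 17456 to 19547, and their part in these differences was not tested.

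**Figure D5:**
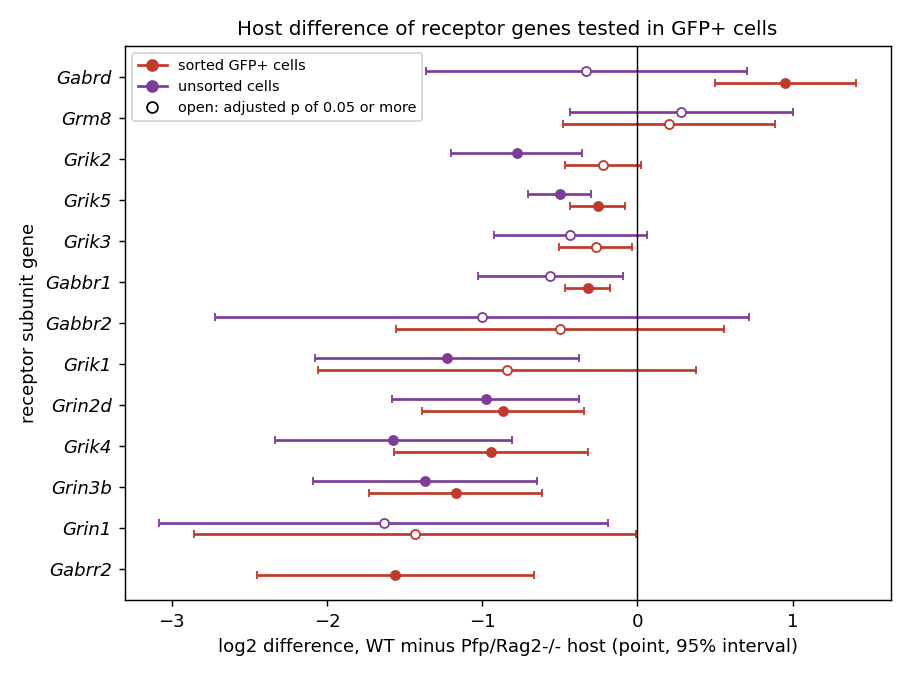
Log2 differences (WT minus Pfp/Rag2-/- host, x axis) with 95% intervals for the 13 receptor genes tested in sorted GFP+ cells (red) and, for the 12 of them tested there, in unsorted cells (purple). Filled points passed the test at an adjusted p under 0.05. Gabrd is the one filled point above 0.

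In unsorted cells 11 of 37 receptor genes were lower in WT hosts and 0 higher, where 29.9% of 15448 genes were called (15.1% higher, 14.8% lower), with a median of -0.98 against -0.05. Among the 11 were Grik1, Grik2, Grik4, Grik5, Grin2a, Grin2d, Grin3b, Gabra2, Gabra4 and Gabrb2. Gabra2 differed the most (log2 difference -2.97, SE 0.63, limma adjusted p = 0.0126), and Grik5 the least (log2 difference -0.50, SE 0.09, limma adjusted p = 0.00586). Grik4 (log2 difference -1.57, SE 0.33, limma adjusted p = 0.0115) and Grin3b (log2 difference -1.37, SE 0.31, limma adjusted p = 0.0158) lay between them. Gria1 (log2 difference -1.50, SE 0.50, limma adjusted p = 0.0599), Gria2 (log2 difference -0.97, SE 0.50, limma adjusted p = 0.185) and Grik3 (log2 difference -0.43, SE 0.21, limma adjusted p = 0.159) were not called. Leaving out 1 library moved the count to 3 without Pfp/Rag2-/- library 2, 5 without library 1, 7 without library 3 and 6 without WT library 2. Gabra2, Grik4 and Grik5 were called in each fit that left out 1 library.

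Library 1 of the unsorted Pfp/Rag2-/- cells set much of the spread in this host. Its level over the mean of the other two had a median of 2.94 (1.92 to 7.58) over 26 receptor genes that were under 10 in GFP+ cells, and 3.45 (1.61 to 7.24) over the 20 neuron markers. Over the 12 receptor genes at 10 or more in GFP+ cells the median was 1.29 (0.843 to 4.89, the highest being Gabbr2, Grin1 and Gabrd), and over the 5 kainate genes 1.23 (0.865 to 1.52). Slc17a7, the vesicular glutamate transporter of cortical excitatory neurons, stood at 452, 28.99 and 18.9 in the 3 libraries. The summed astrocyte markers were also highest in library 1, at 13831 against 8260 and 7780. Those of myelinating oligodendrocytes were highest there too, at 29772 against 24725 and 22197. Those of oligodendrocyte precursors were lowest there, at 74662 against 86625 and 87544. Neuronal RNA, read by its markers, thus differed between these libraries, but not it alone. The part of any cell type in the host difference of unsorted cells was not tested.

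The difference between the host effects in GFP+ and in unsorted cells was tested as an interaction over 12 libraries. It passed for 0 of 38 receptor genes with limma, edgeR and DESeq2, where limma called 0.934% of 16161 genes, and 5 of the 38 had an unadjusted p under 0.05 with each tool. The smallest adjusted p was that of Gabrr2 (log2 difference -3.06, SE 0.86, limma adjusted p = 0.0905), which passed without unsorted WT library 1 (log2 difference -3.58), and Gabrd stood at 1.28 with SE 0.52 and limma adjusted p = 0.2. Of 19 glutamate receptor partners tested in GFP+ cells, 3 were higher and 4 lower in WT hosts, and of 11 transporters 1 was higher and 2 lower, near the 30.4% of all genes called there. Slc12a2, a chloride importer on which the direction of GABA currents depends, was lower in WT hosts in GFP+ (log2 difference -0.94, SE 0.07, limma adjusted p = 0.00029) and unsorted cells (log2 difference -1.15, SE 0.14, limma adjusted p = 0.00138). So was Glul, the gene of glutamine synthetase (log2 difference -0.77, SE 0.07, limma adjusted p = 0.000774, and log2 difference -0.99, SE 0.21, limma adjusted p = 0.0133). The astrocytic glutamate transporter Slc1a3 was higher (log2 difference 0.53, SE 0.06, limma adjusted p = 0.00183, and log2 difference 0.62, SE 0.08, limma adjusted p = 0.00232). Shank1, a scaffold of excitatory synapses, was higher in GFP+ cells of WT hosts (log2 difference 1.27, SE 0.17, limma adjusted p = 0.00278), and its relative Shank3 lower (log2 difference -2.05, SE 0.47, limma adjusted p = 0.0187).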

How the data were processed

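RNA was measured by sequencing of poly(A) RNA in 18 libraries of 6 groups, with a directional kit per the labels' protocols. The deposited values are gene counts that the authors divided by size factors, a signal per gene; STAR 2.5.2b, DESeq2 and GRCm38 are named in the submitters' processing notes, while the read counter with its strand setting, and the annotation used, are not given in the sources at hand. Whole reads were recovered for 100% of values within 0.05 reads, which gave 19172814 to 21141662 reads per library.

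Main tests used limma 3.58.1 in R 4.3.3 on log2(value + 1), in the compared groups only, for genes with at least 10 in 3 libraries. Tests were two-sided, with Benjamini-Hochberg adjustment over all genes tested and a threshold of 0.05. Fold changes on this scale understate those of low genes, and several of the 9 comparisons share groups. Ratios with 1 to 3 reads in a group carry exact binomial 95% intervals for counting error only. Levels between genes were compared per kilobase of exon, with gene names, exons and coordinates from GENCODE vM21 on GRCm38, and promoters came from RefSeq, GRCm38.p6. Alternatives were another pseudocount, no filter and a filter at 50, TMM factors, 1 fit of all libraries, leaving out libraries, a replicate block, and edgeR 4.0.16 and DESeq2 1.42.0 on recovered reads. The main script was tested on simulated data.

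The replicate numbers are shared across groups in the labels. Same-numbered GFP+ libraries of the 2 hosts deviated together (correlations 0.616, 0.483 and 0.102 across genes), and the block changed no call of a receptor gene there. All 47 genes could be named, but the values of some are not reported here; they stay in the counts, medians and shares. Those with a mean of at least 100 in a group are given in every library, and listed partner, metabolism and transporter genes were named as the 2 highest and 2 lowest called with a mean of at least 50, unless stated. The members and lists were chosen with earlier results of these data known.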

Additional observations from a re-analysis of the deposited data

How the results depend on the processing

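The number of receptor genes called followed how many passed the filter on low values. With no filter it was 17 in GFP- against GFP+ cells (10 as reported), 26 in unsorted against GFP+ cells of WT hosts (17) and 22 in GFP+ cells of Pfp/Rag2-/- hosts against culture (10). With a filter at 50 these were 5, 5 and 6, and it was 14 in unsorted against GFP+ cells of Pfp/Rag2-/- hosts (29), 9 in unsorted against GFP- cells (23) and 7 in the host comparison of unsorted cells (11). With all 18 libraries in 1 fit the first 3 were 18, 26 and 21. Leaving out 1 library gave 10 to 11 genes in GFP- against GFP+ cells, 12 to 20 and 24 to 29 in unsorted against GFP+ cells of WT and Pfp/Rag2-/- hosts, 20 to 23 in unsorted against GFP- cells, 8 to 9 and 10 to 11 in GFP+ cells of the 2 hosts against culture, 3 to 7 and 3 to 11 in the host comparisons of GFP+ and unsorted cells, and 0 to 1 in their interaction, where Gabrr2 (-3.58) was called without unsorted WT library 1. The host comparison of GFP+ cells gave 2 without both GFP+ libraries numbered 1 (7). The cause of the drops in both host comparisons was not tested. With a replicate block the host comparison of unsorted cells gave 7, losing Gabra4, Grik2, Grin2d and Gabrb2, and in the other comparisons the block moved the count by 1 gene at most; outside GFP+ cells the libraries share only a number. Among 135 results of single genes, 1743 of 1879 alternative values kept their direction and call, 109 lost the call, 21 gained one and 6 changed sign. All 6 were uncalled and came from leaving out 1 library: Grik3 in unsorted against GFP+ cells of WT hosts (-0.21 to 0.17, above 0 without GFP+ library 3, at 0.04, or unsorted library 1) and of Pfp/Rag2-/- hosts (-0.019 to 0.15, below 0 without unsorted library 3), Gria3 in unsorted against GFP- cells (-0.35 to 0.33, below 0 without unsorted library 3 or GFP- library 2, at -0.08) and Grin2d in GFP+ WT against cultured cells (-0.24 to 0.053, above 0 without GFP+ library 3). TMM factors moved the median of all genes by -0.11 in GFP- against GFP+ cells and by 0.10 in unsorted against GFP- cells.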
